A study of Mus musculus with 42 samples.

Results

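The clock repressor arm comprises the genes whose proteins switch off the activators of the circadian clock, and 10 of them were followed here among the 35275 genes listed for mouse cerebellum. They were chosen by name, with earlier results of these data known, and matched on the deposited gene symbol. The members were Per1, Per2, Per3, Cry1, Cry2, Ciart, Nr1d1, Nr1d2, Bhlhe40 and Bhlhe41. Each was found once in both deposited tables, and all 10 passed the filter on low counts in every fit. Cerebellum was taken from male mice of the strain C57BL/6 (C57/BL6NTac in the description of the design), which started at 3 months of age. Mice fed ad libitum (AL) always had food, mice on the daily fast (IF16) had food from 7 am to 3 pm and fasted for 16 h, and mice on the alternate-day fast (EOD) went without food for 24 h from 7 am on every other day. Tissue was collected at 6 months of age after 3 months of each regimen, or at 8 months after 2 further months in which all mice ate ad libitum; the labels mark the groups of this second stage with an added R, written here as AL-R, IF16-R and EOD-R. Each of the 6 groups had 5 RNA-seq libraries, and the labels do not say whether each came from a separate mouse, so p-values measure the spread between libraries. The lighting schedule and the hour at which tissue was taken are not given in the sources used here.

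The mammalian clock is a negative feedback loop. The activators CLOCK and BMAL1 (encoded by Arntl) bind E-box sequences in promoters and raise the transcription of the Period and Cryptochrome genes, whose proteins return to the nucleus and inhibit that binding pair. A second loop runs through REV-ERB alpha and beta (Nr1d1 and Nr1d2), which repress Arntl. CIART, also called CHRONO, and the DEC proteins (Bhlhe40 and Bhlhe41) dampen E-box activity. The transcripts of these genes vary over the day in most tissues, the cerebellum included, and Per1 also responds within hours to glucocorticoids and to neuronal activity.

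Promoter sequences were searched for the E-box and other clock elements. RefSeq (assembly GRCm38.p6) gave windows of 250 bases upstream of 9 start sites of 8 members; Per2 and Bhlhe40 were not matched. The first 2 sequences below are shown because Ciart and Per1 were the members that passed the test, and the third because Per3 carried another clock element. The canonical E-box CACGTG and the D-box, TTATGTAA or TTACGTAA, are in capitals; the E-box reads the same on both strands, and the D-box was sought on both.

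Ciart, chr3:95882229-95882478, minus strand: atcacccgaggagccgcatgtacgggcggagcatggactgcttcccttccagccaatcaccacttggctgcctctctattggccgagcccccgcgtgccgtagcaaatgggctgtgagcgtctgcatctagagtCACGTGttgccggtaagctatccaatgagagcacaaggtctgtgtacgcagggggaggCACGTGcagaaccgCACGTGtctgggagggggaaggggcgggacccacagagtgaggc
Per1, chr11:69098699-69098948, plus strand: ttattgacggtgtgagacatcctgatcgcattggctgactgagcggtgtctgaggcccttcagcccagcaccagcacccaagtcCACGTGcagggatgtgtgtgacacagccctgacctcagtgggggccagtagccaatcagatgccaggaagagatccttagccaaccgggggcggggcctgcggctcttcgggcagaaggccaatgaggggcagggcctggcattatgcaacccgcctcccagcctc
Per3, chr4:151044666-151044915, minus strand: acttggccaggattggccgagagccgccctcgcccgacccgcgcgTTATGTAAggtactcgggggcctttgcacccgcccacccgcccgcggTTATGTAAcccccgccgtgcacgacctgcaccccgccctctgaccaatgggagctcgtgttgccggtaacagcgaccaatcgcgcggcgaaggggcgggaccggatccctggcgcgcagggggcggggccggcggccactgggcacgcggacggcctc

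The window of Ciart held 3 canonical E-boxes, whose first bases lay 116, 58 and 44 bases before the start site. Of 32851 RefSeq windows of the same length, 20 windows of 18 genes held at least 3 (0.0609%). Per1, Cry1 and Bhlhe41 had 1 E-box each, at 166, 60 and 153 bases before the start. In all, 4 of the 9 windows held the E-box, against 6.02% of all windows. The single-letter variant AACGTG, sought as CACGTT on the other strand too, occurred in Cry1, Cry2 and Nr1d1, against 3.85% of all windows. The D-box, bound by the transcription factors DBP, TEF and HLF, was present in Per3 at 205 and 158 bases before the start and in 0.931% of all windows. The ROR element core, TAGGTCA or TGGGTCA on either strand, was in none of the 9 windows and in 5.38% of all. These matches describe letters in short windows and were not tested as binding sites. The start site used for Per1 lies inside the gene span of the deposited annotation (chromosome 11, 69095217 to 69109960), and a second Per1 window had neither box.

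**Figure D1:**
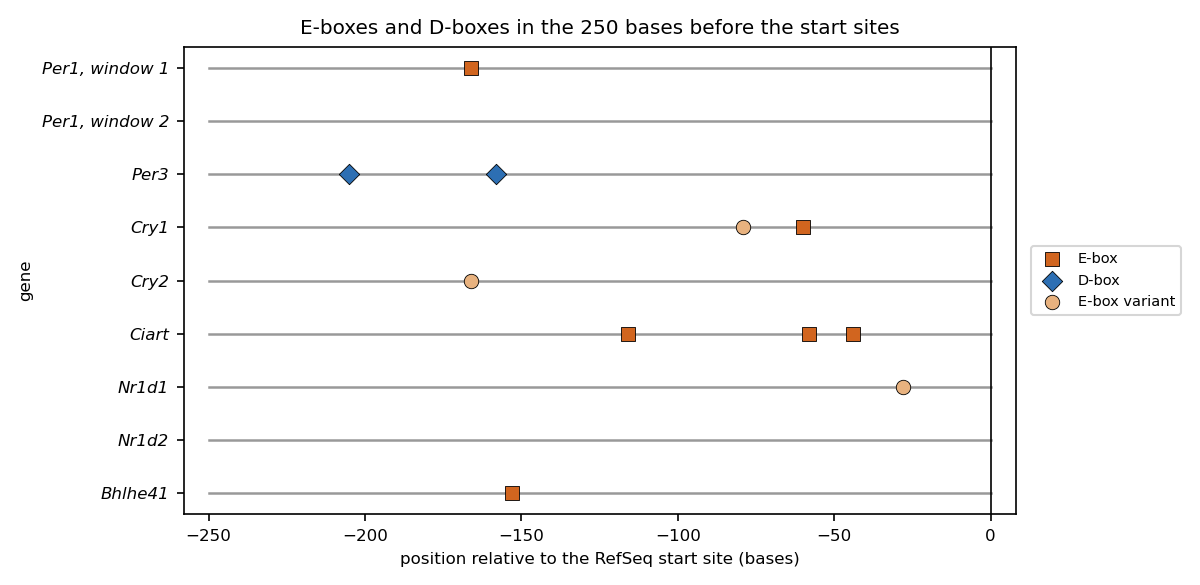
Positions of E-boxes (squares), the single-letter E-box variant (circles) and D-boxes (diamonds) in 9 RefSeq promoter windows of 8 members; the horizontal axis gives bases relative to the start site. Ciart holds 3 E-boxes within 116 bases of its start, and Per3 holds 2 D-boxes.

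All 10 members were abundant enough to be measured well, with the lowest mean at 11.04 CPM for Ciart in AL. CPM is the depth-normalized read count after TMM scaling within a table, and FPKM divides the count by gene length and library total, so that levels of different genes are compared only in FPKM. In AL, Nr1d1 stood highest at 39.0 ± 4.73 FPKM (SD, n = 5), followed by Cry2 at 34.1 ± 1.07 and Nr1d2 at 27.2 ± 4.51. Bhlhe40 (24.4 ± 1.45), Per1 (23.7 ± 3.85) and Cry1 (19.2 ± 1.60) formed the middle, and Bhlhe41 (11.3 ± 0.641), Per3 (7.56 ± 1.03), Per2 (7.47 ± 2.36) and Ciart (5.69 ± 0.499) the lower end. Library values overlapped between neighbours in this order except between Cry2 and Nr1d2, between Cry1 and Bhlhe41, and between Bhlhe41 and Per3. By mean FPKM, Nr1d1 was highest and Ciart lowest in each of the 6 groups. In AL, IF16 and EOD the libraries of Nr1d1 overlapped those of the next gene. In IF16 the mean of Ciart, 10.6 FPKM, was close to that of Per3, 10.7 FPKM, and their libraries overlapped. Per1 was the fifth highest in AL and the second in EOD; in IF16 its mean of 39.3 FPKM could not be told from that of Nr1d2, also 39.3 FPKM.

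**Figure D2:**
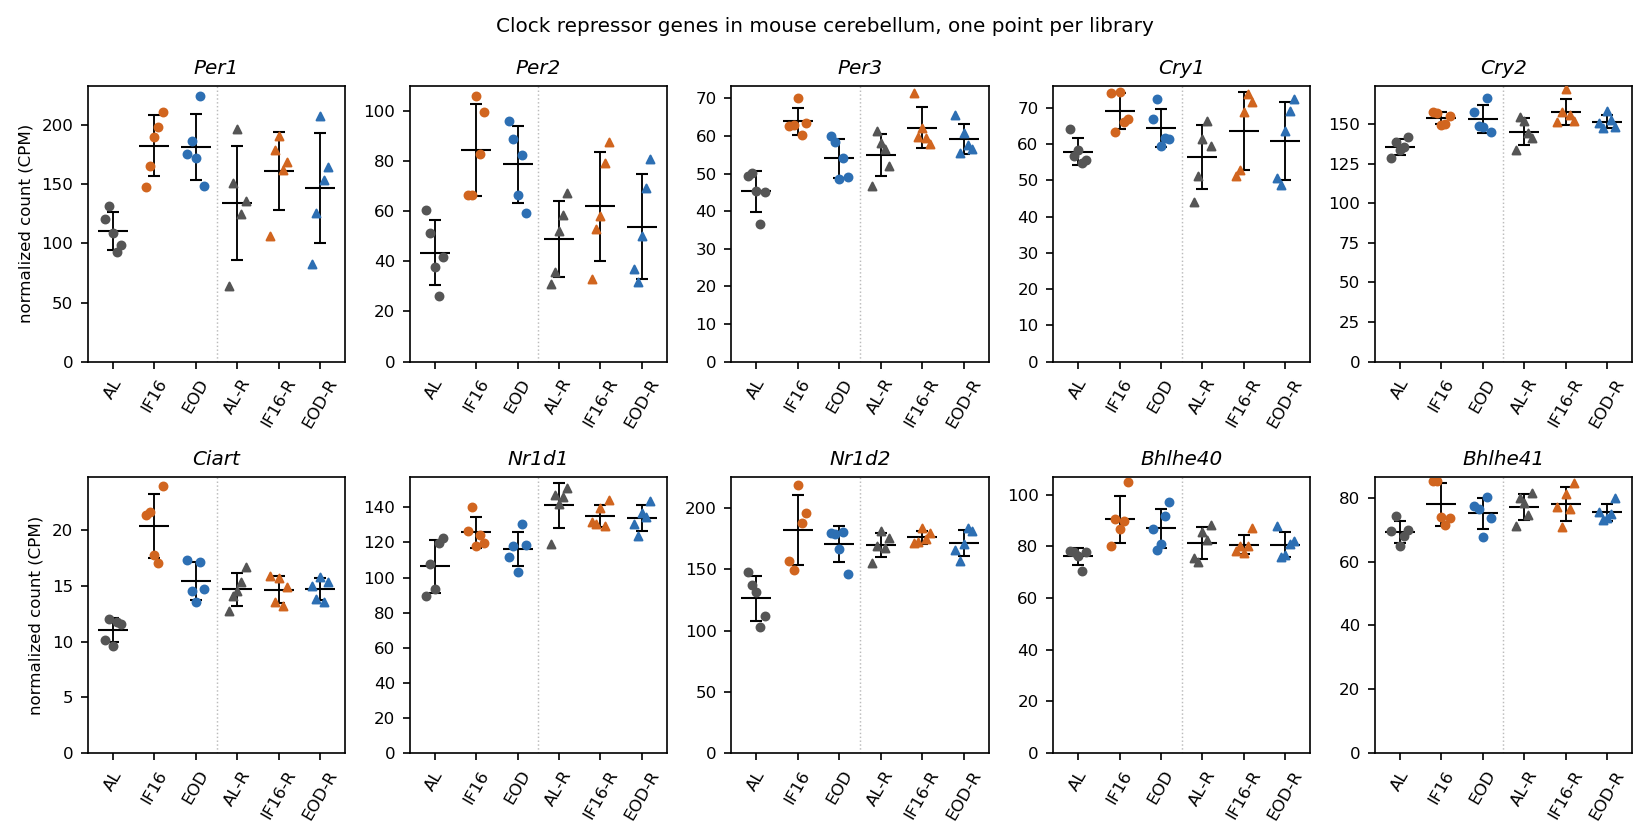
Normalized counts (CPM, vertical axis from 0) of the 10 members in the 6 groups; each point is a library, circles are the end of the regimens and triangles the refed groups, and bars give mean and SD. IF16 and EOD lie above AL for Per1 and Ciart without overlap, while the 3 refed groups of Ciart share a mean of 14.7 CPM.

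The daily fast was compared with ad libitum feeding to ask whether the repressor genes changed. All 10 members had a higher mean in IF16 than in AL, and 2 passed the test: Ciart rose 1.85-fold and Per1 rose 1.65-fold. These 2 were among 8 genes called of 16577 tested, which is 0.0483% of the genes. Called means an adjusted p under 0.05 in edgeR's quasi-likelihood test with Benjamini-Hochberg adjustment over all genes. At an unadjusted p under 0.05 all 10 members were higher, against 4.35% of the genes tested. In 7 of the 10 the IF16 and AL libraries did not overlap, against 1.55% of the genes in either direction. The median log2 fold change was 0.37 over the members and -0.01 over all genes. Since RNA was taken from whole tissue, a change in the number of cells that express a gene and a change in RNA per cell cannot be told apart.

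Ciart, the E-box repressor with the 3 E-boxes shown above, had 10.1, 12.1, 9.59, 11.8 and 11.6 CPM in the AL libraries and 21.4, 21.7, 17.8, 17.1 and 24.0 CPM in the IF16 libraries. Every IF16 library was above every AL library, with a gap wider than the range of the AL values. The log2 fold change was 0.89 (SE 0.107, 95% interval 0.66 to 1.11, adjusted p = 0.00174 by edgeR). Ciart remained called in each of the 10 fits that left out 1 library and in the 11 other settings tried, with log2 fold changes from 0.82 to 0.95.

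Among the Period genes, the core partners of the cryptochromes, Per1 had 121, 132, 108, 92.3 and 98.5 CPM in AL and 147, 165, 190.0, 198 and 211 CPM in IF16. The groups did not overlap, and the log2 fold change was 0.73 (SE 0.123, adjusted p = 0.0451 by edgeR). This call was close to the threshold. It was kept in 2 of the 10 fits without 1 library (without AL replicate 2 and without IF16 replicate 1) and lost in the rest, where the adjusted p reached 0.157 (without IF16 replicate 5). Per2 had the highest point estimate of the members, with 60.4, 51.3, 37.6, 26.3 and 41.5 CPM in AL and 66.3, 66.2, 106, 82.7 and 99.5 CPM in IF16. The groups were separate but wide, and its log2 fold change of 0.95 (SE 0.199) missed the threshold with an adjusted p of 0.109 by edgeR. Per3 was at 36.6 to 50.2 CPM in AL and at 60.3 to 70.0 CPM in IF16, a log2 fold change of 0.50 (SE 0.0865) with an adjusted p of 0.0504 by edgeR, just outside the threshold.

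The cryptochromes, which hold the CLOCK and BMAL1 pair inactive, had small fold changes. Cry2 was at 128 to 142 CPM in AL and at 149.6 to 157 CPM in IF16, without overlap, and its log2 fold change was 0.18 (SE 0.0536, adjusted p = 0.307 by edgeR). Cry1 was at 54.8 to 64.1 CPM in AL and at 63.3 to 74.2 CPM in IF16, with a log2 fold change of 0.25 and an adjusted p of 0.284 by edgeR. The single overlap lay at the lowest IF16 library, replicate 2, which was below AL replicate 1.

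Of the REV-ERB genes, the repressors of Arntl, Nr1d2 was the further from its controls. Its libraries gave 148, 137, 132, 103 and 112 CPM in AL and 157, 149.7, 219, 188 and 196 CPM in IF16, with a log2 fold change of 0.53 (SE 0.114, adjusted p = 0.132 by edgeR). Nr1d1 ranged from 89.2 to 122 CPM in AL and from 118 to 140.2 CPM in IF16, and the groups overlapped (log2 fold change 0.24, adjusted p = 0.423 by edgeR). For the DEC genes the differences were of the same small order. Bhlhe40 was at 70.4 to 78.1 CPM in AL and 80.1 to 105 CPM in IF16 (log2 fold change 0.25, adjusted p = 0.327), and Bhlhe41 was at 64.8 to 74.4 CPM and 71.5 to 85.3 CPM (0.17, adjusted p = 0.446, both by edgeR).

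The alternate-day fast was compared with the same AL libraries, so the comparisons share their controls. Per1 rose 1.65-fold. All 10 fold changes were above 0, and Per1 was the single member called, 1 of 11 genes called (0.0664% of those tested). At an unadjusted p under 0.05, 8 of the 10 were higher, all but Nr1d1 and Bhlhe41, against 7.02% of the genes. Per1, Cry2, Ciart and Bhlhe40 did not overlap with AL, which held for 2.90% of all genes. The members' median log2 fold change was 0.22 and that of all genes was -0.02.

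Per1 had 176, 187, 172, 225 and 149 CPM in EOD, all above the highest AL library at 132 CPM. Its log2 fold change was 0.72 (SE 0.123, adjusted p = 0.0436 by edgeR), and the call was kept in 1 of 10 fits without 1 library, that without EOD replicate 5, and lost in the others with an adjusted p up to 0.208 (without AL replicate 5). Per2 had 96.0, 88.7, 66.5, 82.3 and 59.4 CPM in EOD, overlapping AL at 1 library, and a log2 fold change of 0.85 (SE 0.199, adjusted p = 0.175 by edgeR). Ciart had 17.3, 14.6, 13.5, 17.1 and 14.8 CPM, each above all AL libraries, with a log2 fold change of 0.49 (SE 0.107, adjusted p = 0.158 by edgeR). Nr1d2 was at 146 to 181 CPM (0.43, adjusted p = 0.208 by edgeR). The remaining log2 fold changes were 0.25 for Per3, 0.15 for Cry1, 0.17 for Cry2, 0.19 for Bhlhe40, 0.13 for Nr1d1 and 0.11 for Bhlhe41, with adjusted p-values from 0.261 to 0.453 by edgeR.

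**Figure D3:**
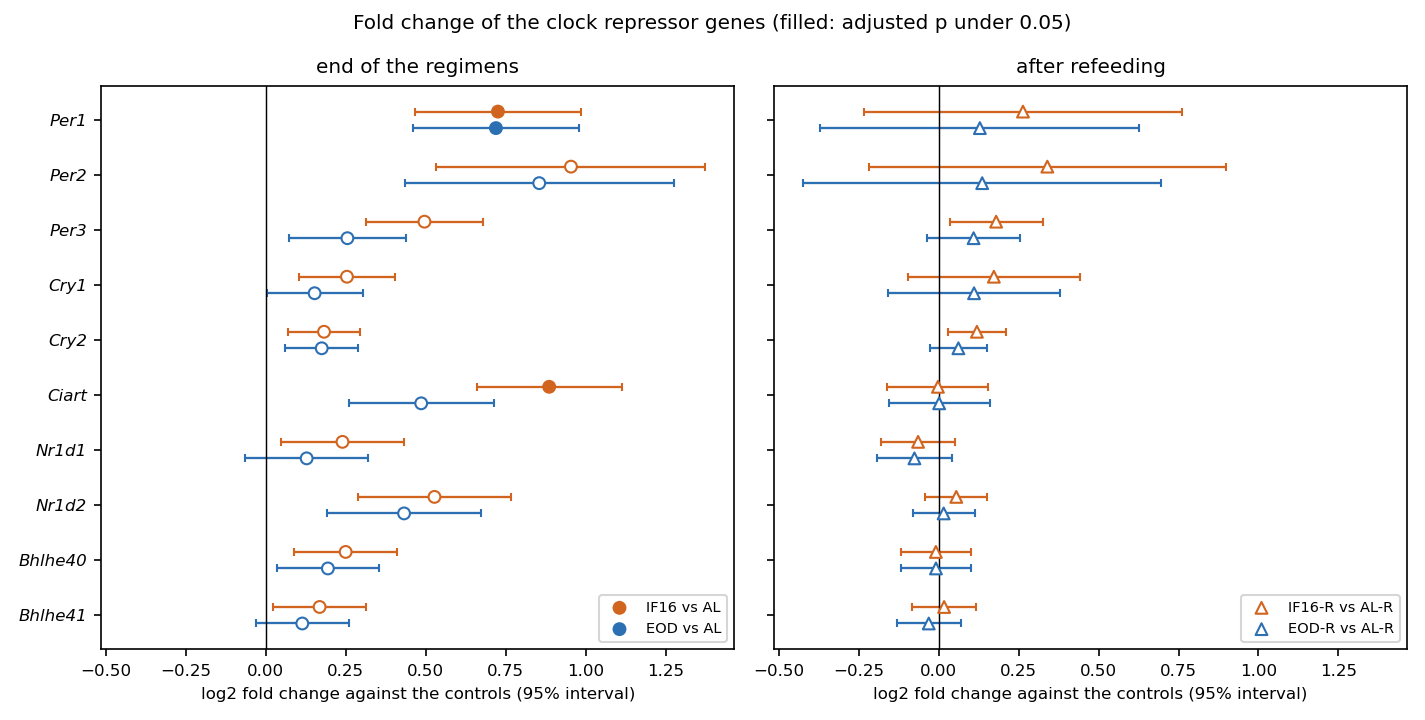
Log2 fold changes of the 10 members with 95% intervals against AL (left, circles) and against AL-R (right, triangles), for the daily fast in orange and the alternate-day fast in blue; filled points passed an adjusted p under 0.05. Ciart and Per1 (IF16) and Per1 (EOD) are filled on the left, and no point is filled on the right.

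Set directly against each other, the regimens gave no called member, and no gene at all was called (0% of 16577) by edgeR. DESeq2 called 1 gene and limma-voom 0, in both cases no member. All 10 point estimates were lower in EOD than in IF16, with a median log2 difference of -0.10. At an unadjusted p under 0.05, 2 members were lower, against 1.86% of the genes. They were Ciart, at a log2 difference of -0.40 (95% interval -0.62 to -0.18, unadjusted p = 0.00155, adjusted p = 0.977 by edgeR), and Per3, at -0.24 (interval -0.42 to -0.06, unadjusted p = 0.0127, adjusted p = 0.977 by edgeR). The highest EOD library of Per3, at 59.9 CPM, lay just under the lowest IF16 library, at 60.3 CPM. For Per1 the difference was -0.01 with an interval from -0.26 to 0.25, and for Cry2 it was -0.01 with an interval from -0.12 to 0.11. A p that misses the threshold does not show that the regimens act alike.

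After 2 months of ad libitum feeding, no member was called between any of the 3 refed groups by edgeR, DESeq2 or limma-voom. Genes called by edgeR were 0.17% of 16444 for IF16-R against AL-R, 0.0426% for EOD-R against AL-R and 0.0182% for EOD-R against IF16-R. Ciart had nearly the same values in all 3 groups: 12.7, 14.1, 14.5, 15.4 and 16.7 CPM in AL-R, 15.9, 13.6, 15.7, 13.2 and 14.9 CPM in IF16-R, and 15.01, 13.8, 15.8, 13.6 and 15.4 CPM in EOD-R. The mean was 14.7 CPM in each of these groups, and the 95% interval of the log2 difference between IF16-R and AL-R ran from -0.16 to 0.16. At an unadjusted p under 0.05, Per3 (0.18, unadjusted p = 0.0182) and Cry2 (0.12, unadjusted p = 0.0120) were higher in IF16-R than in AL-R by edgeR, against 4.76% of the genes. No member reached that level in EOD-R against AL-R or against IF16-R, where 8.50% and 9.75% of the genes did.

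For Per1, Per2 and Cry1 the refed libraries differed far more within a group than at the end of the regimens. The SD of log2 CPM within groups was 0.49 after refeeding and 0.21 before for Per1, 0.54 and 0.36 for Per2, and 0.25 and 0.10 for Cry1. It went the other way for Nr1d2, at 0.08 after refeeding and 0.20 before. Per1 spanned 63.7 to 197 CPM in AL-R, 106 to 190.5 CPM in IF16-R and 82.5 to 208 CPM in EOD-R. The intervals for Per1 in the refed groups were therefore wide, from -0.23 to 0.76 for IF16-R against AL-R.

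Much of this spread went with the replicate number in the labels. Per2 in the libraries numbered 1 was 30.9 CPM for AL-R, 32.9 CPM for IF16-R and 36.8 CPM for EOD-R, and in those numbered 5 it was 67.3, 87.4 and 80.6 CPM. Cry1 was 44.0, 51.1 and 50.7 CPM in the libraries numbered 1, and 66.3, 73.9 and 69.1 CPM in those numbered 4. Per1 was lowest in the library numbered 1 and highest in the one numbered 3 in each of the refed groups. The number carried 92.9% of the within-group variation of Per2, 94.7% of that of Cry1 and 90.2% of that of Per1, against a median of 43.5% over 16320 genes. Shares as high as these were reached by 0.392%, 0.208% and 1.1% of the genes. For Ciart the share was 40.8%. At the end of the regimens it was 13.8% for Per2, 9.59% for Per1 and 42.4% for Cry1, against a median of 26.05%, and the members with the highest shares were Bhlhe41 (61.6%) and Nr1d1 (56.9%). What the number stands for is not given in the sources used here, and its part in the differences between groups was not tested beyond the fits with the number as a term given in the closing part.

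**Figure D4:**
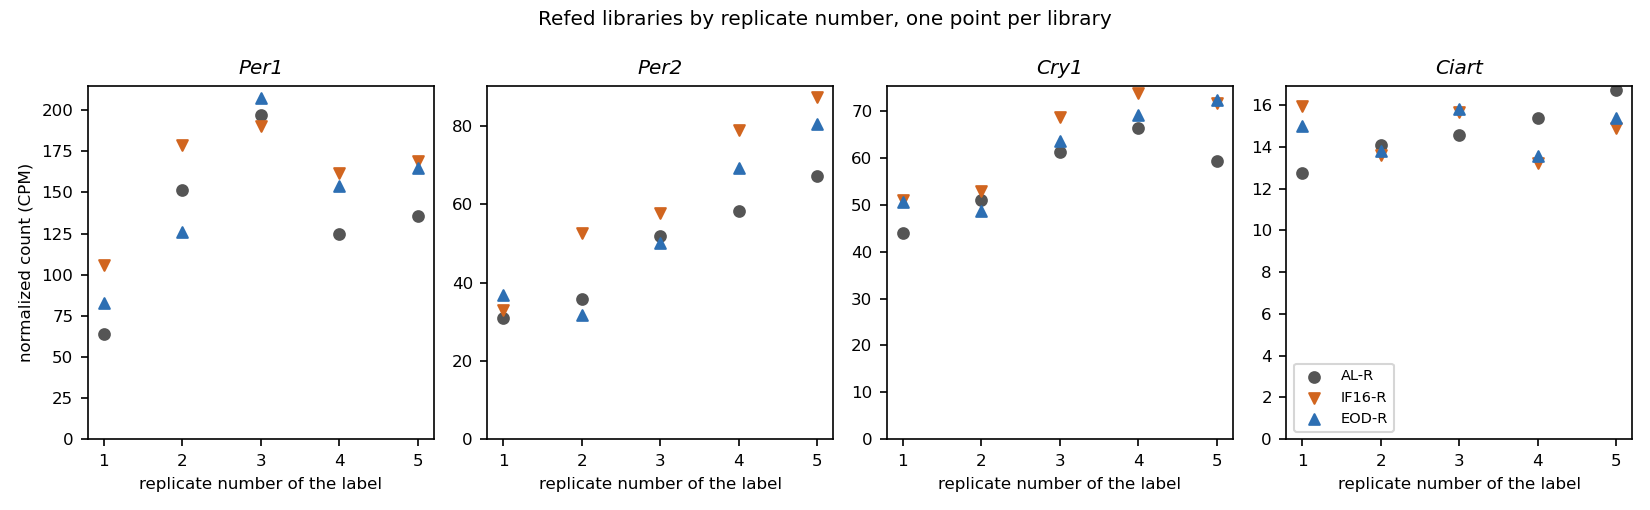
Normalized counts (CPM, vertical axis from 0) of Per1, Per2, Cry1 and Ciart in the refed groups against the replicate number of the label, whose meaning is not given; each point is a library. The number carried 90.2% of the within-group variation of Per1, 92.9% of that of Per2, 94.7% of that of Cry1 and 40.8% of that of Ciart.

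Whether an effect of fasting changed between the stages was tested in 1 fit of all 30 libraries. Ciart was called for the daily fast, 1 of 8 genes called of 16877 (0.0474%). Its difference from the controls was lower by 0.89 on the log2 scale after refeeding than at the end of the regimen: the estimate was -0.89 (SE 0.131, 95% interval -1.15 to -0.62, adjusted p = 0.00301 by edgeR), and it was called in all 20 fits without 1 library and in the 9 other settings tried. The estimates of all 10 members were below 0, and 5 had an unadjusted p under 0.05 (Per3, Ciart, Nr1d1, Nr1d2 and Bhlhe40), against 3.28% of the genes. For the alternate-day fast no member was called (0.0119% of genes were), and 3 members, Ciart (-0.49), Nr1d2 (-0.42) and Bhlhe40 (-0.21), had an unadjusted p under 0.05, against 4.86% of the genes. For Per1 the estimates were -0.46 (interval -1.07 to 0.15) and -0.59 (interval -1.20 to 0.01), so a change between stages was not shown.

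The controls of the 2 stages were not level. In the fit of 30 libraries, Ciart (log2 difference 0.41), Nr1d1 (0.40), Nr1d2 (0.42) and Per3 (0.27) were called higher in AL-R than in AL, while 23.9% of all genes were called in that comparison. Age, the set of mice and the table cannot be told apart there. The refed mean of Ciart, 14.7 CPM, lay between that of AL at 11.04 CPM and that of IF16 at 20.4 CPM, on scales set separately in each table.

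The members did not vary as a single unit between libraries of a group. Over the 30 libraries, deviations of log2 CPM from the group means correlated positively in 40 of the 45 pairs, with a median Pearson r of 0.22. In 12 pairs, all positive, the permutation p of Pearson's r adjusted over 45 pairs was under 0.05. Some of these did not pass by Spearman's rho, such as Per1 and Per2 (adjusted permutation p = 0.0161 for r and 0.0566 for rho). Values for pairs of other genes are not given here, so the count shows nothing particular to the members. The pair with the highest value was Per2 and Cry1 (Pearson r = 0.82, adjusted permutation p = 0.00022; Spearman rho = 0.84, adjusted permutation p = 0.00022). It was 0.55 within the regimen table, 0.92 within the refed table and 0.78 without the 2 libraries farthest from the median. For Per2 and Nr1d2 the values were r = 0.69 and rho = 0.72 (adjusted permutation p = 0.00022 for both), with 0.89 and 0.75 within the tables and 0.73 without the 2 farthest libraries. The value 0.00022 rests on the smallest p that 100000 permutations can give. All permutation p-values here treat the libraries of a group as independent. In the refed groups the replicate number carried 92.9% of the within-group variation of Per2 and 94.7% of that of Cry1. The p-values of pairs with these genes may therefore be too small. Ciart went with Bhlhe41 (r = 0.61, adjusted permutation p = 0.0183; rho = 0.56, adjusted 0.0458; 0.63 and 0.57 within tables; 0.53 without the 2 farthest) and with Nr1d1 (r = 0.59, adjusted permutation p = 0.0161; rho = 0.54, adjusted 0.0451; 0.53 and 0.70 within tables; 0.57 without the 2 farthest).

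Other pairs had opposite signs in the regimen and refed tables, and the difference between the tables was not tested. Nr1d1 and Nr1d2, the paralogous REV-ERB genes, had r = -0.63 within the regimen table and 0.76 within the refed table, and their pooled value was not past the threshold (r = -0.33, adjusted permutation p = 0.362; rho = -0.23, adjusted 0.525). Per2 and Per3 had 0.87 within the regimen table and -0.31 within the refed table. A property of the libraries, the length gradient defined below, also went with these genes in the regimen table. Its r there was 0.89 with Nr1d2, -0.45 with Nr1d1, 0.81 with Per2 and 0.68 with Per3. In the refed table these were 0.26, 0.10, -0.08 and 0.27. The part of the gradient in these pairs was not tested. The sign was the same in both tables in 26 of the 45 pairs.

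**Figure D5:**
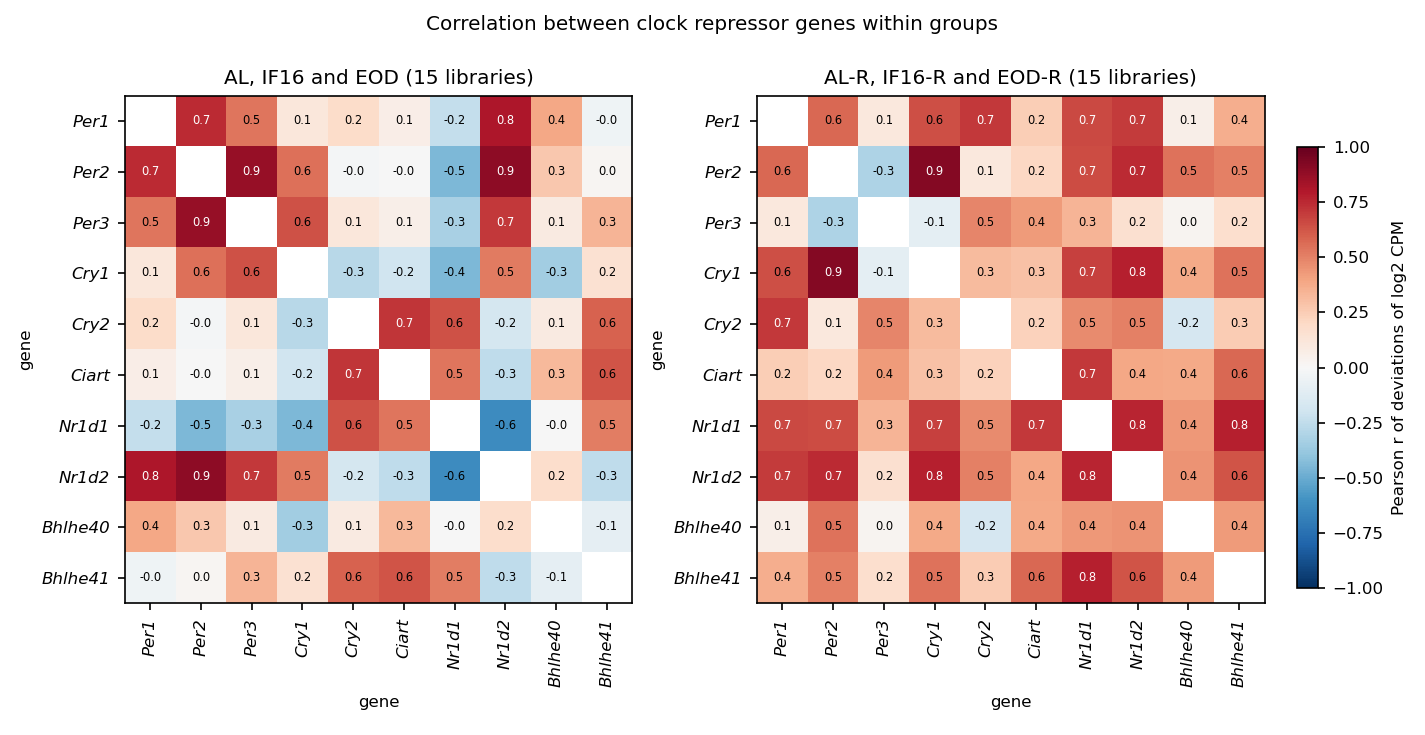
Pearson r of deviations of log2 CPM from group means for each pair of members, within the 15 libraries of the regimens (left) and the 15 refed libraries (right); red is positive and blue negative. The row of Nr1d1 is blue against Per2, Cry1 and Nr1d2 on the left and red on the right.

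Properties of the libraries moved with some members. Library totals ranged from 26799825 to 36167435 counts. The length gradient, the slope on log2 gene length of a library's log2 CPM relative to each gene's mean, was low in AL replicate 4 (-0.206), AL replicate 5 (-0.141) and IF16 replicate 1 (-0.140). Within groups it went with Nr1d2 (r = 0.83, adjusted permutation p = 0.0005; rho = 0.80, adjusted 0.002; 0.78 without the 2 farthest libraries). Per1 (r = 0.31, rho = 0.44), Per2 (0.43, 0.38) and Per3 (0.53, 0.48) also passed by Pearson's r, with an adjusted permutation p of 0.0164 each, and by rho with 0.0426 for Per1 and Per3 but 0.0925 for Per2; without the 2 farthest libraries r was 0.23, 0.31 and 0.42. In the regimen table alone r was 0.89 for Nr1d2, 0.88 for Per1, 0.81 for Per2 and 0.68 for Per3; in the refed table these were 0.26, -0.18, -0.08 and 0.27. For Ciart r was -0.15 over all 30 libraries. With the gradient as a covariate Per1 had a log2 fold change of 0.63 in IF16 and 0.52 in EOD and was called in both. Nr1d2 then had 0.44 in IF16, where it was called (adjusted p = 0.00174 by edgeR), and 0.26 in EOD in place of 0.43, where it was not (adjusted p = 0.200). Per2 (0.82) and Per3 (0.45) were called in IF16 and not in EOD, where they had 0.58 and 0.16. Without those 3 libraries, a choice made after seeing the data, Per1 had 0.66 and 0.59 and Nr1d2 had 0.43 and 0.29, none of them called, while Ciart was called in IF16. The part of the gradient in the differences was not tested otherwise.

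Marker genes fitted the labelled tissue. All 7 granule cell and 6 Purkinje cell markers were present, with summed levels of 4665 to 5532 CPM and 5517 to 7576 CPM, while 4 hindbrain Hox genes were under 0.1 CPM in the group means. The 11 choroid plexus markers, from the tissue that makes cerebrospinal fluid, were all present and summed to 182 to 5119 CPM in AL, 172 to 4137 in IF16, 1181 to 3872 in EOD and 155 to 3036 in the refed groups. No member correlated with their mean log2 level at an adjusted permutation p under 0.05 over 10 members; the nearest was Per2 (r = -0.56, adjusted 0.0609; rho = -0.53, adjusted 0.0986).

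Other genes of the clock were taken from the same fits. Arntl, the gene for BMAL1 and the target of the REV-ERBs, had the smallest p of its list and was not called in either regimen, at 44.4 ± 2.79 CPM in AL and 36.0 ± 1.52 CPM in IF16 (SD, n = 5). Its log2 fold change was -0.30 in IF16 (adjusted p = 0.103 by edgeR) and -0.17 in EOD (adjusted p = 0.314 by edgeR). Of the 4 D-box factors, Tef, an activator at sites such as those of Per3, was called in both: 294 ± 14.6 CPM in AL, 412 ± 13.8 CPM in IF16 (log2 0.49, adjusted p = 0.00174) and 371 ± 25.2 CPM in EOD (log2 0.34, adjusted p = 0.0485, both by edgeR). Its IF16 effect was lower after refeeding by a log2 difference of -0.37 (adjusted p = 0.0454 by edgeR).

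None of 11 clock kinases, phosphatases and ubiquitin enzymes was called, with median log2 fold changes of 0.12 in IF16 and 0.13 in EOD. Usp2, a deubiquitinase of clock proteins, had the smallest p, at 0.41 in IF16 (adjusted p = 0.103) and 0.39 in EOD (adjusted p = 0.136, both by edgeR). None of 10 other repressors and partners and none of 10 other E-box or clock-controlled genes was called; the smallest p belonged to Wdr5 in IF16 (log2 0.12, adjusted p = 0.516), Sfpq in EOD (0.35, adjusted p = 0.309) and Coq10b in both (0.52, adjusted p = 0.109; 0.42, adjusted p = 0.203, all by edgeR).

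Genes induced by glucocorticoids, a signal to which Per1 responds, were mostly above AL. This list, like the others, was chosen with earlier results of these data known. Of 14 tested, 12 were higher in IF16 and 13 in EOD at an unadjusted p under 0.05 by edgeR, against 4.35% and 7.02% of the genes, and none was lower. Their median log2 fold changes were 0.68 and 0.72. Plin4, a lipid droplet protein, was the single one called: 2.14 ± 0.345 CPM in AL and 8.69 ± 2.56 CPM in EOD (log2 2.02, adjusted p = 0.0485 by edgeR), with 7.17 ± 4.97 CPM in IF16 (log2 1.74, adjusted p = 0.109 by edgeR). Of 19 immediate early genes, 18 were tested and none was called. By edgeR at an unadjusted p under 0.05, 7 were higher and 3 lower in IF16, against 4.35% and 5.57% of the genes. In EOD 9 were higher and 3 lower, against 7.02% and 7.4% of the genes. Ier5 had the smallest p in IF16 (-0.45, adjusted p = 0.235) and Npas4, a gene of neuronal activity, in EOD (1.32, adjusted p = 0.203, both by edgeR).

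The genes whose deviations from the group means were most like those of a member were sought among 13149 genes over the 30 libraries and are given without a test. For Per1 it was Nr4a3 (Pearson r = 0.90), an immediate early gene of the nuclear receptor family. For Per2 it was Mafg (0.91), for Per3 Arhgef2 (0.86), for Cry1 Banp (0.88), for Cry2 Dusp8 (0.78), for Ciart Sema6c (0.77), for Nr1d1 Ccdc92 (0.82), for Nr1d2 Nufip2 (0.94), for Bhlhe40 Fbxw11 (0.79) and for Bhlhe41 Hmha1 (0.82). The value of Banp came from the refed table, with 0.96 there and 0.19 in the regimen table, whereas Mafg had 0.90 and 0.93. For the mean of the 10 members it was Myh9 (0.82), followed by Atn1, Anks1, Dnmt1 and D8Ertd82e at 0.77 to 0.78.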

How the data were processed

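RNA-seq of cerebellum gave 30 libraries in 6 groups of 5, named by their labels; 12 samples of chromatin immunoprecipitation and input were not analysed here. Read counts as whole numbers were deposited for each gene in 2 tables of 15 libraries, together with the authors' FPKM values, which equal the count divided by length and library total. The submitters' processing notes name STAR 2.5, HTSeq 0.6.1, DESeq2 and the build mm10; the strand setting and the annotation release are not given in the sources used here, so reads of overlapping genes may be exchanged. Every column belonged to a sample.

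Counts were tested with edgeR 4.0.16 in R 4.3.3 (TMM, filterByExpr by group, quasi-likelihood test, Benjamini-Hochberg over all genes), with 1 fit per table and a joint fit of 30 libraries, and the fits were tested on simulated data. DESeq2 1.42.0 and limma 3.58.1 (voom) served as alternatives, beside other scalings, filters, covariates and leaving out each library. Log2 CPM used a prior count of 2. Correlations used 100000 permutations within groups, two-sided. All 10 members are named throughout; of each further list, the called genes or else the gene with the smallest p are named, and likeness was sought among genes with a mean of at least 1 CPM. Members and lists were chosen with earlier results of these data known. Some genes and list counts are not reported here. Intervals are at 95%; the spread between libraries, not depth, set the precision. Libraries of 1 group differed beyond counting noise in all 60 pairs (chi-square per degree of freedom 4.24 to 136), so none was a library deposited a second time; this does not show that they came from separate mice. The common coefficient of biological variation by edgeR came to 14.3% for the regimens and 8.05% after refeeding.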

Additional observations from a re-analysis of the deposited data

Results flagged for a closer look

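In the libraries of 1 group, 3 of 60 sets of 5 values had a library far from the rest by Dixon's criterion, and chance alone marks about 1 in 20. Nr1d1 was at 119 CPM in AL-R replicate 1, against 142 to 151 CPM in the other AL-R libraries. Bhlhe40 was at 70.4 CPM in AL replicate 4, against 76.2 to 78.1 CPM in the others. Bhlhe40 was at 87.1 CPM in IF16-R replicate 5, against 77.5 to 80.2 CPM in the others.

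The effect of the daily fast on Ciart differed between the stages: the log2 difference from the controls was 0.89 at the end of the regimen and 0.00 after refeeding, a change of -0.89 that was tested in the fit of 30 libraries.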

How the results depend on the processing

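Of 1800 recomputed member estimates, none that was called changed sign. A further 81 uncalled estimates changed sign, and the largest of these was 0.136 on the log2 scale as reported. In IF16 and in EOD against AL all 10 members stayed above 0 under every setting. The number called in IF16 against AL, 2 as reported, was 6 with DESeq2, 5 with the length gradient as a covariate and 3 with no filter. It was 1 with limma-voom, the choroid plexus covariate, the 2 groups alone, or without the 3 libraries of lowest gradient (chosen after seeing the data), and 1 to 2 without single libraries. In EOD against AL, 1 as reported, it was 5 with DESeq2 and 2 with the choroid plexus covariate. It was 0 with RLE size factors, unscaled library totals, limma-voom, the 2 groups alone, or without the 3 libraries, and 0 to 1 without single libraries. DESeq2 called 94 genes in IF16 and 133 in EOD, against 8 and 11 by edgeR. For the change of the IF16 effect between stages the number of members called was 2 with the length gradient and 1 otherwise. The numbers of genes called in the other settings are not given here, so those counts of members are not set against all genes. The cause of these shifts was not tested. The other 4 comparisons between groups and the change of the EOD effect kept 0 called members throughout.

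The labels do not say that a replicate number marks a shared source, and the correlation of same-numbered libraries' deviations over all genes was over 0.1 in 3 of 15 pairs in the regimen table (median -0.04) and in 8 of 15 in the refed table (median 0.10), so the numbers were not taken as pairing the libraries. As a hint from the data and not the design, 14 of 15 same-numbered refed pairs were above 0, against 24 of 60 others, and 7 of 15 refed libraries correlated best with one of their own number, against 0 of 15 in the regimen table. With the replicate number as a block, 1 member was called in IF16 and 0 in EOD against AL, since Per1 had adjusted p-values of 0.162 and 0.175. In IF16-R against AL-R the block gave adjusted p-values of 0.0646 for Per2, 0.0793 for Cry1 and 0.0960 for Per1, against 0.707, 0.689 and 0.749 without it. The members there at an unadjusted p under 0.05 by edgeR, in either direction, went from 2 to 5 with the block. IF16-R was above AL-R at 5 of 5 numbers for Per2, Cry1, Cry2 and Nr1d2. For Per1, Per3 and Bhlhe41 it was above at 4 of 5, and for the other members at 1 or 2 of 5. The number is not known to pair libraries. The same signs over all genes are not given here, so they show nothing particular to the members. Members at that unadjusted level, in either direction, went from 0 to 1 in both other refed comparisons. They went from 5 to 8 for the change of the IF16 effect and from 3 to 7 for that of EOD. The share of all genes at that level with the block is not given here, so these counts show nothing particular to the members. No other call changed with the block.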
